A study of Mus musculus with 15 samples.

Results

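Promoter regions that carried H3K27ac in both genotypes were examined in mouse bone marrow-derived macrophages (BMDMs) with CUT&RUN, which tethers a nuclease to an antibody bound on chromatin and sequences the DNA that the nuclease releases. The members were chosen by the H3K27ac region lists themselves. The 4 lists (WT replicates 1 and 2, cKO replicates 1 and 2) were merged on chromosomes 1 to 19 and X, and a merged region was kept if it was overlapped in all 4 libraries, was under 10 kb wide and had its midpoint between 1 kb upstream and 100 bp downstream of the start site of a protein-coding transcript. This selected 1391 of 89773 merged regions. Of all merged regions, 15390 were called in all 4 libraries, 14602 of these were under 10 kb, and 13211 of those did not lie at a promoter by midpoint. Kept regions described below as not at promoters or away from promoters are these 13211. They were set apart by midpoint alone, and 3171 of them still held a protein-coding start site. A further 20 promoter regions were called in all 4 libraries but were 10 kb or wider and were left out.

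WT macrophages carried loxP-flanked H3f3a and H3f3b alleles (fl/fl) without Cre. cKO macrophages carried the same alleles with LysM cre/cre, which places Cre at Lyz2, a gene active in myeloid cells, and the study noted that deletion of H3f3b varied in extent. H3.3-HA was mapped in BMDMs of another line, in which H3f3b was replaced by an HA-tagged copy, so H3.3 encoded by H3f3a carried no tag and the tagged protein was not measured in WT or cKO cells. All mice were on a C57BL/6 background, males and females aged 8 to 10 weeks were used, and cells were grown for about a week (day 7) in medium with L929-conditioned supernatant. Of 15 samples, the 10 with region lists were used, 2 for H3.3-HA and, in each genotype, 2 for H3K27ac and 2 for H3K36me3, and these are labelled as biological replicates.

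H3K27ac is acetylation of lysine 27 on the tail of histone H3 and marks active promoters and enhancers, where it is written mainly by the acetyltransferases p300 and CBP. At an active promoter the stretch just before the start site is depleted of nucleosomes, and the mark usually sits on the nucleosomes on either side of this gap. H3.3 is the variant of histone H3 that is placed on DNA outside of replication, by HIRA at active genes. H3K36me3 follows elongating polymerase and marks the bodies of transcribed genes, so it reads transcription at a distance from the promoter.

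The H3K27ac libraries held 16444864 to 29988098 tags. Regions covered 89.6 and 74.8 Mb in WT and 46.2 and 62.0 Mb in cKO, and held 24.1% and 21.5% of tags in WT against 11.8% and 17.8% in cKO, so the share of tags in regions moved with genotype. The lists of each genotype were also called against a different control IgG library, so genotype and control cannot be told apart, and the values below are lengths of called regions rather than heights. A shorter region cannot separate fewer cells with the mark from less of it per cell. Among H3K36me3 libraries, cKO replicate 1 stood apart with 90.6 Mb covered against 163 to 170 Mb in the other 3. Of 12 macrophage marker genes, 4 had a promoter window overlapped in all 4 H3K27ac libraries, 7 in 1 to 3 libraries and 1 in none, and none had a member. None of the markers of T cells (5 genes), erythroid cells (3) or fibroblasts (4) had an H3K27ac region at its promoter. A window of 1 of 4 neutrophil markers was overlapped in 1 to 3 libraries, and 1 of 4 B cell markers, Ms4a1, had a member.

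The sequences shown here are the 200 bases before the start site of members among those whose H3K27ac changed most or least. They are read on the gene's strand from the GRCm38.p6 (mm10) reference. Stretches with a long overlap with annotated exons were passed over, and a short overlap was allowed, so a printed stretch may hold some exon bases. Capitals mark matches, on either strand, to 12 short motifs: GGGCGG (GC box), CCAAT (bound by NF-Y), CCGGAAG (ETS), GAGGAAGT (PU.1), TGCGCATGC (NRF1), AAGATGGCG (YY1), TGACGTCA (CRE), TGANTCA (AP-1), TCTCGCGAG (ZBTB33), TTTCCCGC (E2F), the core of the interferon-stimulated response element, ISRE (GAAA, any 2 bases, then GAAA again) and TATAAA (bound by TBP). GC boxes may overlap each other, and the CCGGAAG and GAGGAAGT motifs share the bases GGAAG. The members with the greatest gain of covered length in cKO are represented by 1600014C10Rik (chr7:38186071-38186270, plus strand), Hist1h1b (chr13:21780626-21780825, minus strand) and Slfn8 (chr11:83017716-83017915, minus strand). Pbrm1 and Hnrnpa2b1 gained more than Slfn8 and were passed over. The Hist1h1b stretch holds a TATA box 28 bases before the start site, a GC box at 75 bases and CCAAT boxes at 168, 66 and 53 bases. The Slfn8 stretch has no match and an observed over expected CpG ratio of 0.231.
1600014C10Rik: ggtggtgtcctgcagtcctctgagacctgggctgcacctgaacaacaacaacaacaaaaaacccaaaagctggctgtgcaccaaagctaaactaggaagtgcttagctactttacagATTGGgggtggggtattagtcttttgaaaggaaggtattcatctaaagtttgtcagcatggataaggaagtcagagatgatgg
Hist1h1b: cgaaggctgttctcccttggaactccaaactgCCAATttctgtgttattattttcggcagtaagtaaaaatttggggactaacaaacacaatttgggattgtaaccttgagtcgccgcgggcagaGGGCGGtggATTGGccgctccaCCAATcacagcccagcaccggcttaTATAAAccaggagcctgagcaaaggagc
Slfn8: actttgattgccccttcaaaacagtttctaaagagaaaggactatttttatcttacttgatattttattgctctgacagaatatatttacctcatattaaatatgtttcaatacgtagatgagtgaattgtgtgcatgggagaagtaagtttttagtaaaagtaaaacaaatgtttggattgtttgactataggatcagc

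The members with the greatest loss in cKO are represented by Dnajc13 (chr9:104246828-104247027, minus strand), Htr2b (chr1:86111971-86112170, minus strand) and Celf1 (chr2:90987420-90987619, plus strand). The annotated start sites nearest to the Dnajc13 and Celf1 members lie 16.1 kb and 47.2 kb inside their genes. The Dnajc13 stretch holds no CpG dinucleotide, and its observed over expected CpG ratio was 0.
Dnajc13: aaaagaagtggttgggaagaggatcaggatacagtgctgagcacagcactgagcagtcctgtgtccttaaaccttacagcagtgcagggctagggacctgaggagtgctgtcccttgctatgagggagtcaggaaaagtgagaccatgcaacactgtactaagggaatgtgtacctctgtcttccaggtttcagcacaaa
Htr2b: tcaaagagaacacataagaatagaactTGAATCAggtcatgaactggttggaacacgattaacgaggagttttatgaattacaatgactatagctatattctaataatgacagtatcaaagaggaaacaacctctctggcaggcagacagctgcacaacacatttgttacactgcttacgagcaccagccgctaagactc
Celf1: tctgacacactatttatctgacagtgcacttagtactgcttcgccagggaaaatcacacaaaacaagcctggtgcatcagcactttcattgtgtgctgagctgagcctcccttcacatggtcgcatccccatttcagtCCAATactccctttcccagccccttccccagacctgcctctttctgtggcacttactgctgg

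Least varying members of at least 2 kb with H3.3-HA in both replicates are Arpc4 (chr6:113378370-113378569, plus strand), Nod1 (chr6:54972613-54972812, minus strand) and Kdsr (chr1:106759728-106759927, minus strand). Their stretches had 66.0%, 55.0% and 69.0% GC, and the Kdsr stretch holds GC boxes 148, 36 and 31 bases before the start site. Eef1g (chr19:8966841-8967040, plus strand), with a start site bare in both WT libraries and covered in both cKO libraries, and Fdps (chr3:89101960-89102159, minus strand), a cholesterol synthesis gene that was shorter in cKO, are shown beside them and were chosen after their values were seen.
Arpc4: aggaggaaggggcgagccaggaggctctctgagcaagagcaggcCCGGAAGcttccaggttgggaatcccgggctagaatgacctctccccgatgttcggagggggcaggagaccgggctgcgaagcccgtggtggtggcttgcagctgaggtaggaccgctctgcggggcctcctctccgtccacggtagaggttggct
Nod1: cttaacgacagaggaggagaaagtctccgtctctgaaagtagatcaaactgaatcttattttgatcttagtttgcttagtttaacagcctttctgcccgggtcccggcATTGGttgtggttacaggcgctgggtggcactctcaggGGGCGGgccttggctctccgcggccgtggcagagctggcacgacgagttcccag
Kdsr: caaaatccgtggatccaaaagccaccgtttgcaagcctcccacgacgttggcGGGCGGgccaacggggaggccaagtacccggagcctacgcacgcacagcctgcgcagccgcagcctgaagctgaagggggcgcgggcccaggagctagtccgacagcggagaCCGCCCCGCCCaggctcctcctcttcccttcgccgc
Eef1g: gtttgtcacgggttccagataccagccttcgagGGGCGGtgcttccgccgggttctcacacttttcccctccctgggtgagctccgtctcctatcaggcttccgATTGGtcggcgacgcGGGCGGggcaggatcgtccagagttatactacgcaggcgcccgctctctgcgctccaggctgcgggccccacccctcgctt
Fdps: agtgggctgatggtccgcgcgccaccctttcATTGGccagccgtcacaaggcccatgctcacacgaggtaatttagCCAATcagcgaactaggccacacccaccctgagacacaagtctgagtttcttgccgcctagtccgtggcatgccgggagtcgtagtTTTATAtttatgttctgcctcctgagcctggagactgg

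The members spanned a wide range of widths. Their merged width ranged from 526 to 9234 bp with a median of 2734 bp, against 2880 bp for kept regions away from promoters. The midpoint lay upstream of the nearest start site in 1089 members (78.3%), at a median of -193.0 bp, and the window of the rule, which reaches 1 kb upstream but 100 bp downstream, sets this majority. The nearest start site was the outermost annotated 5′ end of its gene in 774 members (55.6%) and within 500 bp of that end in 1087 (78.1%), while in 152 (10.9%) it lay more than 2 kb inside the gene. Start sites of 2 or more genes fell within 1 kb in 153 members (11.0%), and in 145 (10.4%) these were on both strands. The members had 1378 distinct nearest genes, and 28 members lay on chromosome X. Counting shared promoters, 1534 of 21644 protein-coding genes (7.09%) had a member. A further 2612 genes (12.1%) had a window overlapped in all 4 libraries without a member, 5556 (25.7%) in 1 to 3 libraries, and 11942 (55.2%) in none.

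The 10 kb limit split a continuous range. Among the widest members, the region at Pik3cd, the catalytic delta subunit of phosphoinositide 3-kinase, spanned 9234 bp. It was covered by 9234 and 2062 bp in WT and 7349 and 7069 bp in cKO. The region at Calcrl, a calcitonin-type receptor, held 7427 and 6494 bp in WT and 8032 and 8140 bp in cKO. Just outside the limit, a region of 10027 bp at Ampd3, an AMP deaminase, held 9176 and 8608 bp in WT and 3459 and 1092 bp in cKO. The next, of 10114 bp at Vipas39, held 9964 and 9311 bp in WT and 7478 and 7527 bp in cKO.

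The H3K27ac call crossed the start site far more often in cKO than in WT. The start site base lay inside a called region in 54.6% and 52.8% of the members in the WT libraries and in 81.8% and 95.1% in the cKO libraries, which gives 53.7% ± 1.27 for WT and 88.5% ± 9.40 for cKO (SD, n = 2 each). Both cKO libraries lay above both WT libraries by at least the gap between 54.6% and 81.8%. In 406 members (29.2%) the start site was covered in both cKO libraries and in neither WT library, and in 22 members (1.58%) the reverse held. Over all 4542 kept regions under 10 kb that hold a protein-coding start site, the background share covered in both cKO and neither WT was 27.6%, so the members did not stand apart from other kept regions at start sites. The other 3171 of these regions, whose midpoint lay outside the promoter window, had the start site covered in 56.4% and 56.4% in WT and 81.1% and 94.9% in cKO. In 575 members (41.3%) the start site was covered in all 4 libraries and in 22 (1.58%) in none. No test was made, since the members were selected on these lists.

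**Figure D1:**
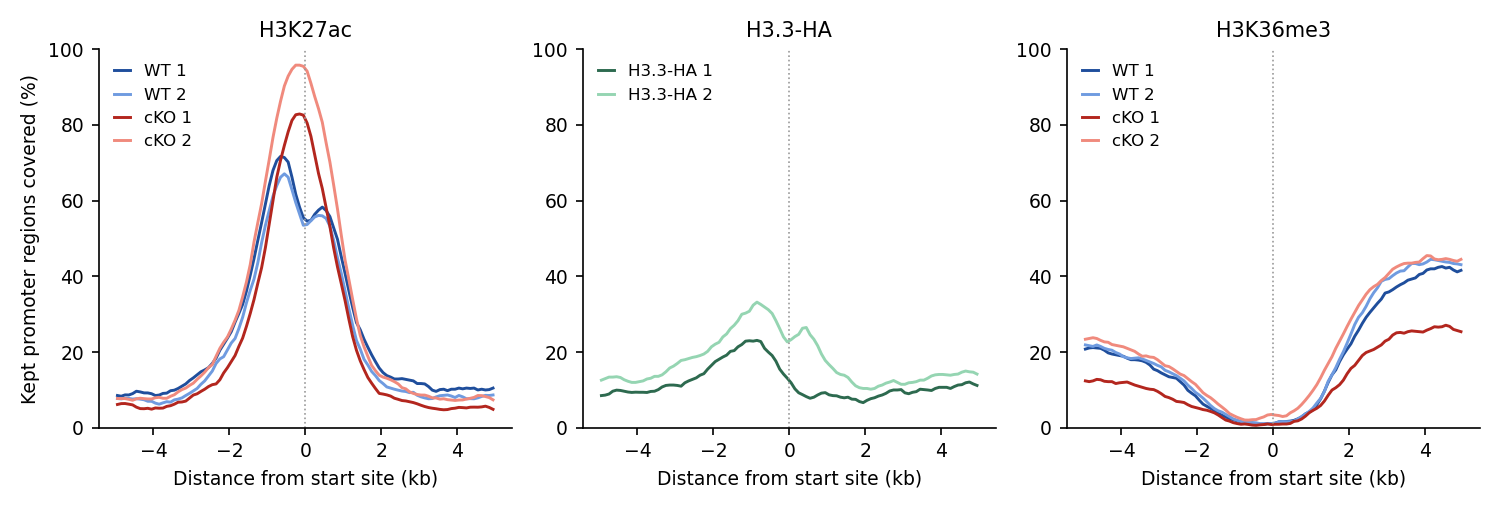
Share of the 1391 kept promoter regions covered by called regions in each 100 bp step from 5 kb before to 5 kb after the start site, per library, for H3K27ac (left), H3.3-HA (middle) and H3K36me3 (right). H3K27ac in both WT libraries peaked upstream (71.7% and 67.1%) and dipped at the start site, whereas both cKO libraries peaked within 300 bp of it (82.9% and 95.8%).

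Along the promoter the genotypes had different shapes. In WT the share of members covered was highest 700 to 500 bp upstream, at 71.7% and 67.1%, and averaged 56.9% and 55.0% over the last 200 bp before the start site. In cKO it was highest 300 to 100 bp upstream, at 82.9% and 95.8%, and averaged 82.8% and 95.7% over the last 200 bp. Farther out the genotypes overlapped. Between 1000 and 500 bp upstream the shares were 69.1% and 63.2% in WT and 65.1% and 81.2% in cKO, and between 2 and 3 kb downstream they were 13.0% and 9.98% in WT and 7.56% and 11.1% in cKO. Where the start site was bare in WT, the call usually lay on a single side of it. Of 632 such members in WT replicate 1, 325 (51.4%) had H3K27ac upstream only, 93 (14.7%) downstream only and 214 (33.9%) on both sides. In WT replicate 2, with 657 such members, the shares were 50.4%, 17.7% and 32.0%. The upstream excess is not a result, because the rule admitted midpoints up to 1 kb upstream but only 100 bp downstream. A start site was bare in 253 members in cKO replicate 1 and in 68 in cKO replicate 2.

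The WT call was also more often in pieces. The merged region held 2 or more separate called regions in 288 members (20.7%) in WT replicate 1 and in 303 (21.8%) in WT replicate 2. In cKO this was so in 183 (13.2%) and 78 (5.61%). Members in pieces in both WT libraries and whole in both cKO libraries numbered 119 (8.55%), against 14 (1.01%) of the opposite kind, and 876 members (63.0%) were whole in all 4. Pieces were not counted in other kept regions, so these shares have no background and are not shown to be particular to the members. HOMER was run with a minimum distance of 1000 bp between peaks. Shorter gaps still occurred, as at Hsd17b7, where 2 called regions of WT replicate 1 covered 1002 bp of a merged width of 1636 bp.

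**Figure D2:**
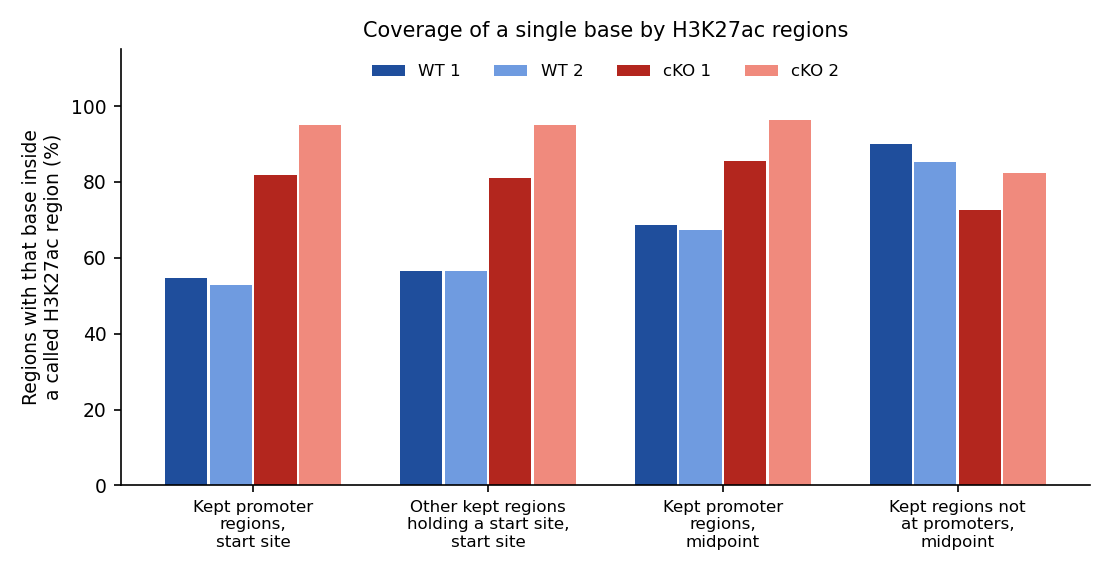
Share of regions in which a single base lay inside a called H3K27ac region, per library, for the start site in members and in the other kept regions that hold one, and for the midpoint of the merged region in members and in kept regions not at promoters. cKO bars exceed WT bars at start sites (81.8% and 95.1% against 54.6% and 52.8% in members), while at midpoints away from promoters the WT bars are the higher.

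The midpoint of the merged region was compared in the same way, because it exists for every kept region. In members it was covered in 68.7% and 67.4% in WT and in 85.5% and 96.3% in cKO. In the 13211 kept regions not at promoters it was covered in 90.1% and 85.4% in WT and in 72.5% and 82.3% in cKO. The difference between genotypes was 22.9 percentage points in members and -10.4 in regions away from promoters. The midpoint was set by the merged H3K27ac lists, and a library with longer calls tends to cover it. The contrast is thus not independent of covered length. Away from promoters the mean length was 2723 and 2447 bp in WT and 1868 and 2305 bp in cKO. In members it was 2101 and 1910 bp in WT and 1979 and 2546 bp in cKO. How far length sets the contrast was not tested. Over all 41135 protein-coding start sites, called or not, the start site base was covered in 16.6% and 16.6% in WT and 27.2% and 35.9% in cKO.

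Covered length inside the members followed genotype only in part. The mean covered length per member was 2101 and 1910 bp in WT and 1979 and 2546 bp in cKO, or 2006 ± 135 bp and 2263 ± 401 bp (SD, n = 2 each). The difference of 257 bp did not exceed the SD of 401 bp between the cKO libraries, and it rested on cKO replicate 2, since it was 6.84 bp without that library and 496 bp without cKO replicate 1. By single pairs, cKO replicate 1 differed from WT replicates 1 and 2 by -122 and 68.8 bp, and cKO replicate 2 by 446 and 636 bp. In kept regions not at promoters, the means were 2723 and 2447 bp in WT and 1868 and 2305 bp in cKO, and every pair of libraries was negative, from -855 to -142 bp. These comparisons between libraries were chosen after the data were seen.

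**Figure D3:**
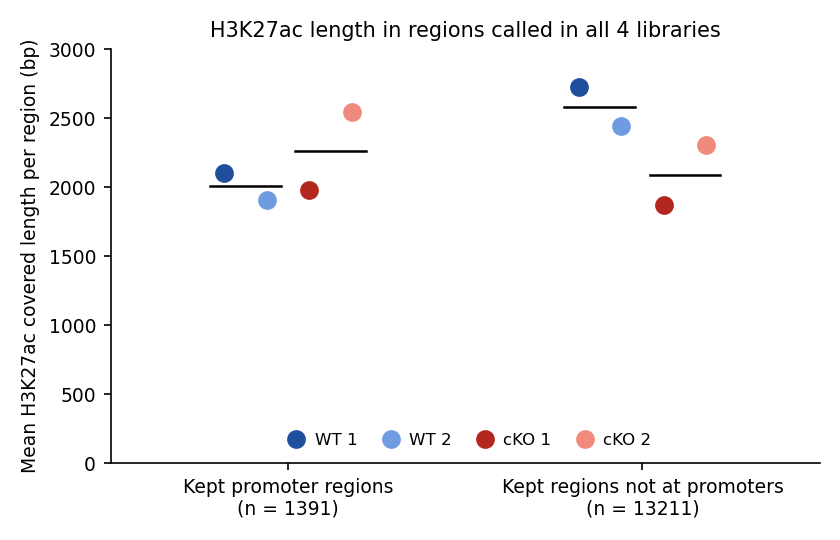
Mean H3K27ac covered length per region in each of the 4 libraries (points) and the mean of each genotype (lines), for the 1391 kept promoter regions and the 13211 kept regions not at promoters. Both cKO libraries lie below both WT libraries away from promoters, and the genotypes overlap at promoters (1910 to 2101 bp in WT, 1979 and 2546 bp in cKO).

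Set against the other kept regions of the same library, members were relatively longer in both cKO libraries. The ratio of the mean covered length of members to that of kept regions not at promoters was 0.772 and 0.781 in WT and 1.06 and 1.10 in cKO. Members held 3.26% and 3.55% of all H3K27ac covered length in WT and 5.96% and 5.72% in cKO. Neither measure overlapped between genotypes. Both also move with their denominators, which were lower in cKO. Total covered length was 89.6 and 74.8 Mb in WT and 46.2 and 62.0 Mb in cKO. Kept regions not at promoters averaged 2723 and 2447 bp in WT and 1868 and 2305 bp in cKO. The lengths of the members themselves overlapped between genotypes, so neither measure shows a gain of length at promoters. Placing regions by any overlap with the promoter window gave 4693 regions with ratios of 1.03 and 1.05 in WT and 1.42 and 1.46 in cKO.

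Region by region, 534 members (38.4%) were longer in both cKO libraries than in both WT libraries, against 18.1% of all 14602 kept regions under 10 kb. Another 258 members (18.5%) were shorter in both, against 42.0% of all kept regions, and in 599 (43.1%) the genotypes overlapped. These shares rested on single libraries: without cKO replicate 2, 41.9% of the members were longer and 38.9% shorter, and without cKO replicate 1, 61.1% were longer and 22.1% shorter. With 1 library in a genotype the condition of no overlap is looser. The median change of a member was 249 bp, between -5352 and 4268 bp. Many values sit at the shortest call in the lists, 501 bp: 110 and 139 members were at 501 bp in WT, and 105 and 26 in cKO. The differences by width were 199 bp for members of 1 to 2 kb, 287 bp for 2 to 3 kb, 360 bp for 3 to 4 kb and 359 bp for 4 to 6 kb, and -172 bp for the 92 members over 6 kb. Away from promoters they ran from -14.2 bp below 1 kb to -1303 bp over 6 kb.

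Length and start site coverage were tied by construction, since a call that fills a gap is longer. Of the 406 members bare in WT and covered in cKO, 276 (68.0%) were longer in cKO and 9 (2.22%) shorter, with mean lengths of 1481 and 1281 bp in WT and 1969 and 2528 bp in cKO. Of the 575 members covered in all 4 libraries, 135 (23.5%) were longer and 182 (31.7%) shorter, with means of 2684 and 2509 bp in WT and 2280 and 2680 bp in cKO. Among longer members the start site was covered in 33.1% and 32.2% in WT, and among shorter members in 88.0% and 88.8%.

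The 12 members with the greatest gain were led by 1600014C10Rik (chromosome 7, 38182532 to 38190169), an uncharacterised gene, with 2187 and 2849 bp in WT and 6085 and 7487 bp in cKO. Both cKO libraries were more than 3 kb above both WT libraries, and H3.3-HA covered 3687 and 4883 bp of the region, whose start site lay 3.05 kb inside the gene. At Hist1h1b (chromosome 13, 21778508 to 21784199), which encodes a linker histone of the H1 family, H3K27ac covered 657 and 947 bp in WT and 4477 and 5508 bp in cKO. At Pbrm1 (chromosome 14, 31015901 to 31021525), a bromodomain subunit of the PBAF chromatin remodeller, the values were 974 and 1411 bp in WT and 4508 and 5396 bp in cKO. The choice of these members required that the genotypes not overlap. The start site was bare in both WT libraries at each of these 3.

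Pairs of genes that share a promoter were among these 12. Hnrnpa2b1, an RNA-binding protein of pre-mRNA processing, shares its region with Cbx3, a heterochromatin protein of the HP1 family (chromosome 6, 51466753 to 51472604). It held 806 and 1002 bp in WT and 4450 and 4691 bp in cKO. Hspe1 and Hspd1, which encode the mitochondrial chaperonins, share a region (chromosome 1, 55085313 to 55090859) with 1937 and 959 bp in WT and 4273 and 5547 bp in cKO. Pnpla7, a lysophospholipase, and Mrpl41, a mitochondrial ribosomal protein, share a region with 783 and 501 bp in WT and 3043 and 4828 bp in cKO. At each of these shared promoters the call extended over the start site in both cKO libraries and in neither WT library. The other members of this group were Slfn8 (3496 and 2600 bp in WT, 6942 and 6231 bp in cKO), Gpbp1l1 (1203 and 869, then 4283 and 4603 bp), Gm9887 (2533 and 1971, then 5886 and 5117 bp) and 4933434E20Rik (2192 and 3695, then 5243 and 6838 bp). Grn, which encodes the lysosomal protein progranulin, held 768 and 3132 bp in WT and 4932 and 4986 bp in cKO, and its WT libraries differed by more than 2 kb. Cenpk, a kinetochore protein, held 501 and 631 bp in WT and 3171 and 3875 bp in cKO.

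**Figure D4:**
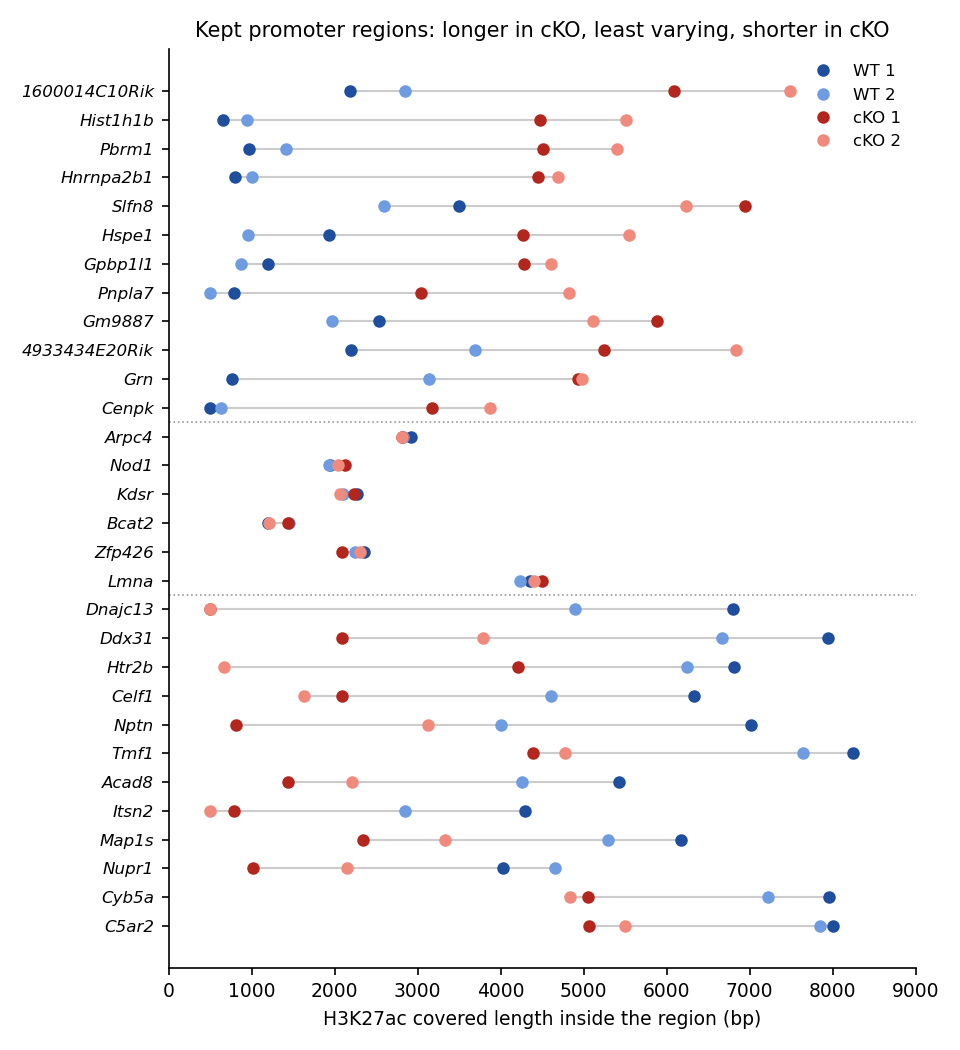
H3K27ac covered length in each of the 4 libraries for the 12 members with the greatest gain (top), the 6 least varying members (middle) and the 12 with the greatest loss (bottom), with a grey line over the range. The largest gap is at Dnajc13, with 6804 and 4901 bp in WT and 501 and 501 bp in cKO.

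The 12 members with the greatest loss were led by Dnajc13, an endosomal co-chaperone (chromosome 9, 104243391 to 104250752). H3K27ac covered 6804 and 4901 bp in WT and 501 and 501 bp, the shortest call, in cKO. At Ddx31, an RNA helicase (chromosome 2, 28835331 to 28844193), the values were 7947 and 6670 bp in WT and 2095 and 3790 bp in cKO. At Htr2b, a serotonin receptor (chromosome 1, 86108523 to 86116063), they were 6816 and 6246 bp in WT and 4207 and 667 bp in cKO. The cKO libraries differed among themselves at Htr2b by more than 3 kb, and both stayed below WT, as the choice of these members required. Celf1, an RNA-binding regulator of splicing, held 6328 and 4606 bp in WT and 2092 and 1630 bp in cKO, and Nptn, a cell adhesion protein, held 7020 and 4000 bp in WT and 809 and 3125 bp in cKO. At 5 of these 12 members, Dnajc13, Celf1, Nptn, Itsn2 and Cyb5a, the nearest start site lay 12.6 to 47.2 kb inside the gene, and at Nupr1 it lay 5.18 kb inside. Among those at the gene's own 5′ end, Tmf1, a Golgi protein, held 8245 and 7642 bp in WT and 4384 and 4773 bp in cKO, and Map1s, a microtubule-associated protein, held 6168 and 5288 bp in WT and 2345 and 3329 bp in cKO. C5ar2, a receptor for complement C5a whose nearest start site lay 1.82 kb inside, held 8001 and 7850 bp in WT and 5065 and 5503 bp in cKO. All 12 carried H3.3-HA in both replicates, as did 8 of the 12 members with the greatest gain, and 88.0% of all members over 6 kb did. Of the 12 with the greatest loss, 9 were over 6 kb wide.

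The least varying members barely moved. Arpc4, a subunit of the actin-nucleating Arp2/3 complex, shares its region with Tada3, an adaptor of histone acetyltransferase complexes. It held 2917 and 2828 bp in WT and 2817 and 2807 bp in cKO, a range of 110 bp over the 4 libraries. Nod1, a sensor of bacterial peptidoglycan, held 1947 and 1934 bp in WT and 2129 and 2043 bp in cKO, and Kdsr, an enzyme of sphingolipid synthesis, held 2269 and 2103 bp in WT and 2228 and 2064 bp in cKO. Lmna, which encodes lamins A and C, held 4357 and 4231 bp in WT and 4502 and 4408 bp in cKO, with a start site, 16.6 kb inside the gene, that was bare in both WT and covered in both cKO libraries. Bcat2 and Zfp426 had ranges of 256 and 265 bp.

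The targeted gene H3f3a was itself a member (chromosome 1, 180812371 to 180814780), and H3K27ac covered 773 and 501 bp of it in WT and 2035 and 2294 bp in cKO. Its start site was bare in both WT and covered in both cKO libraries, and no H3.3-HA region overlapped it. The region lies around the first exon, upstream of the floxed exon, so it does not test the deletion. Of 16 genes for H3.3 and its chaperones, the other with a member was Ubn1, a subunit of the HIRA complex, which shares its region with Glyr1 and held 4221 and 3379 bp in WT and 3729 and 3535 bp in cKO.

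The gene lists below are read beside the members as a whole, of which 38.4% were longer in cKO, 18.5% shorter and 43.1% overlapping with a median change of 249 bp, and beside the 7.09% of all protein-coding genes that had a member. That 7.09% counts the 11942 genes (55.2%) without any H3K27ac region in the window. Such genes were few in the lists, from 0 of 80 for ribosomal proteins to 9 of 43 for cholesterol and lipid synthesis. A list share above 7.09% is thus not shown to be an excess over genes with H3K27ac. Lists hold at most 15 members, and no difference between a list and the members, or between lists, was tested. At Mdm4, Insig2 and Slfn8 the nearest start site lay 5.14, 4.57 and 3.10 kb inside the gene. At Aif1, Atp6v0a1 and Mx1 it lay 2.79, 2.37 and 2.13 kb inside. Among interferon-stimulated genes, a group the study examined in cKO macrophages, 13 of 89 (14.6%) had a member. H3K27ac was longer in both cKO libraries at 9 of them, shorter at 0 and overlapping at 4, and the median change was 785 bp. Mx1, an antiviral GTPase, held 2921 and 2712 bp in WT and 5453 and 5055 bp in cKO, with no overlap. Isg20, an exonuclease, held 2538 and 2238 bp in WT and 3686 and 3970 bp in cKO, and Gbp3, a guanylate-binding protein, held 1066 and 740 bp in WT and 2427 and 2555 bp in cKO. Socs1, an inhibitor of cytokine signalling, held 501 and 660 bp in WT and 1521 and 1814 bp in cKO. At all of these genes both cKO libraries lay above both WT libraries. Oas2, an oligoadenylate synthetase, held 1924 and 793 bp in WT and 3083 and 2165 bp in cKO. Irgm1, an immunity-related GTPase, held 5178 and 5226 bp in WT and 6054 and 5920 bp in cKO. The remaining longer members were Slfn8, Gbp2 and Parp12. Irf9, the DNA-binding subunit of the interferon-activated complex ISGF3, held 3966 and 2903 bp in WT and 3505 and 4796 bp in cKO, so its genotypes overlapped, as did those of Parp9, Psme1 and Nmi. The start site was covered in all 4 libraries at 9 of the 13 and was bare in WT but covered in cKO at 2. Over all members these shares were 41.3% and 29.2%. Lists differed, with 9 and 1 of 11 members for mediator and general transcription factors. For histone acetylation writers, erasers and readers the counts were 1 and 5 of 10.

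Genes of protein synthesis were described next, beside 38.4% longer, 18.5% shorter and a median change of 249 bp over all members. Of 80 cytosolic ribosomal protein genes, 14 (17.5%) had a member, of which 7 were longer in cKO, 4 shorter and 3 overlapping, with a median change of 812 bp. The region that Rpl7a shares with Med22 held 1446 and 767 bp in WT and 2341 and 4312 bp in cKO, and that of Fau, which encodes ribosomal protein S30 and shares it with Mrpl49, held 798 and 501 bp in WT and 1806 and 2907 bp in cKO. The opposite held at Rps12, with 2601 and 2584 bp in WT and 1261 and 1613 bp in cKO, and at Rps27a, with 5392 and 5258 bp in WT and 3983 and 4163 bp in cKO. Of 45 translation factor genes, 5 (11.1%) had a member, 4 of them longer in cKO and none shorter. Eif5a, which aids peptide bond formation, held 2296 and 1703 bp in WT and 3370 and 5573 bp in cKO, and Eef1g, a subunit of elongation factor eEF1, held 1240 and 965 bp in WT and 2402 and 2003 bp in cKO. Of 76 nuclear genes of oxidative phosphorylation, 15 (19.7%) had a member, with 4 longer, 2 shorter and 9 overlapping. Uqcrq, of respiratory complex III, held 1519 and 1394 bp in WT and 2405 and 2639 bp in cKO, and Ndufs5, of complex I, held 1029 and 1104 bp in WT and 501 and 864 bp in cKO.

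Genes of RNA processing and proteolysis had members that were longer and members that were shorter, as did the members as a whole (38.4% and 18.5%). Of 61 splicing factor genes, 12 (19.7%) had a member, with 6 longer, 2 shorter and 4 overlapping. Sf3a2, of the U2 small nuclear ribonucleoprotein, held 501 and 501 bp in WT and 2974 and 3058 bp in cKO, and Srsf2, which shares its region with Mfsd11, held 5452 and 5518 bp in WT and 3292 and 4735 bp in cKO. Of 34 proteasome genes, 1 had a member, Psmc5, with 673 and 501 bp in WT and 802 and 2143 bp in cKO. Of 65 lysosome and autophagy genes, 6 had a member. Atp6v0a1, of the proton pump, was longer (2364 and 501 bp in WT, 4700 and 3660 bp in cKO) and Gabarapl1, of the autophagosome, was shorter (2118 and 2191 bp in WT, 1046 and 1551 bp in cKO).

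Lists for cell division and DNA repair are also set beside the 38.4% longer and 18.5% shorter of all members. Of 65 genes of DNA replication and mitosis, 8 (12.3%) had a member, with 4 longer, 0 shorter and 4 overlapping. Orc1, a subunit of the origin recognition complex, held 1630 and 1492 bp in WT and 3688 and 4281 bp in cKO, and Orc6, of the same complex, held 1634 and 501 bp in WT and 2639 and 3499 bp in cKO. Plk1, a mitotic kinase, held 2013 and 2633 bp in WT and 2011 and 3277 bp in cKO, so its genotypes overlapped. Of 52 genes of DNA damage and apoptosis, 10 (19.2%) had a member, with 5 longer, 1 shorter and 4 overlapping. Sesn1, a p53 target that shares its region with Cep57l1, held 725 and 501 bp in WT and 1793 and 2209 bp in cKO. Brca1, of homologous recombination repair, which shares its region with Nbr1, held 2450 and 2139 bp in WT and 4043 and 4245 bp in cKO. Mdm4, an inhibitor of p53, was shorter, with 3466 and 3055 bp in WT and 2369 and 2892 bp in cKO.

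For chromatin, transcription, lipid and macrophage genes the same shares over all members apply, 38.4% longer and 18.5% shorter with a median change of 249 bp. Of 50 genes for writers, erasers and readers of histone acetylation, 10 (20.0%) had a member, with 7 longer, 1 shorter and 2 overlapping. Kat7, an acetyltransferase of histones H3 and H4, held 1659 and 1477 bp in WT and 3466 and 3286 bp in cKO, and Hdac9, a deacetylase, held 2502 and 2247 bp in WT and 1316 and 632 bp in cKO at a start site 388 kb inside the gene. Of 84 genes for mediator and general transcription factors, 11 had a member, with 3 longer, 4 shorter and 4 overlapping and a median change of -192 bp. Taf3, of the TFIID complex, held 2372 and 2316 bp in WT and 1567 and 1309 bp in cKO. Of 43 genes of cholesterol and lipid synthesis, 7 (16.3%) had a member, with 2 longer, 3 shorter and 2 overlapping and a median change of -110 bp. Fdps, which makes farnesyl diphosphate, held 2424 and 2570 bp in WT and 501 and 1651 bp in cKO, and Insig2, which retains the sterol sensor in the endoplasmic reticulum, held 3163 and 4408 bp in WT and 2077 and 2748 bp in cKO. Of 46 macrophage identity genes, 3 had a member. Runx1, a haematopoietic transcription factor, held 1198 and 886 bp in WT and 2052 and 2417 bp in cKO at a start site 129 kb inside the gene. Klf4, a transcription factor of monocyte differentiation, held 938 and 762 bp in WT and 645 and 1216 bp in cKO, so its genotypes overlapped. Aif1, which encodes the actin-binding protein IBA1, held 1972 and 2050 bp in WT and 2820 and 2450 bp in cKO. No test was made over any list.

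H3.3-HA, which the rule did not use, overlapped fewer members than other kept regions. In 580 members (41.7%, Wilson 95% interval 39.1 to 44.3%) an H3.3-HA region was present in both replicates, against 59.2% of all kept regions under 10 kb and 61.1% (60.2 to 61.9%) of those not at promoters. Replicate 1 alone overlapped 47.4% of members and replicate 2 alone 63.7%, while away from promoters the shares were 72.6% and 70.2%. H3.3-HA was found in neither replicate in 425 members (30.6%), against 18.2% away from promoters. Of the 460 promoter regions found in both cKO libraries and absent from both WT lists, 67 (14.6%, 11.6 to 18.1%) had it in both replicates, and of the 214 called in both WT and neither cKO library, 56 (26.2%, 20.7 to 32.4%). These last groups were narrower, with median widths of 1139 and 878.0 bp. Intervals cover counting error only, and regions of the same libraries are not independent, so no test across regions was made.

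**Figure D5:**
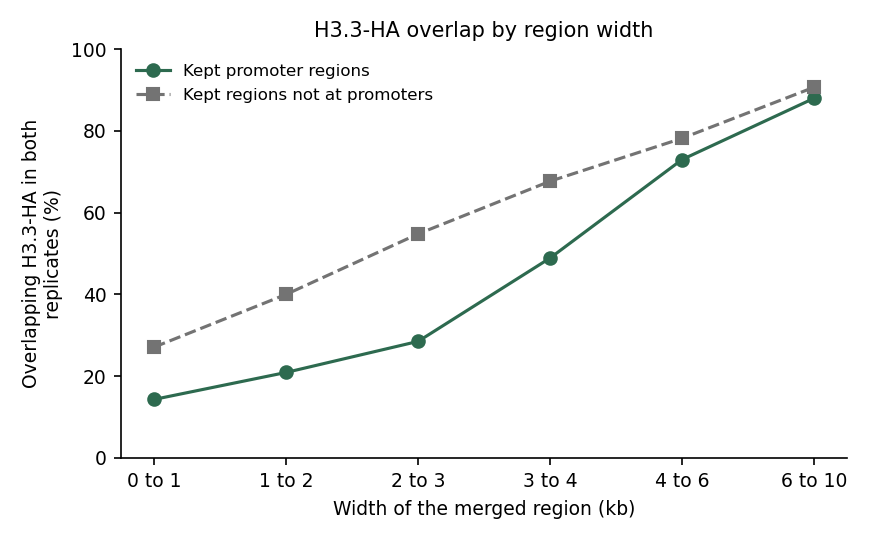
Share of regions overlapping an H3.3-HA region in both replicates, by width of the merged H3K27ac region, for members (circles) and kept regions not at promoters (squares). Members lie below in each of the 6 width classes, by most between 2 and 3 kb (28.5% against 54.8%) and by least over 6 kb (88.0% against 90.7%).

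The lower overlap held at matched width of the merged region. It was 20.9% in members of 1 to 2 kb against 40.0% away from promoters, 28.5% against 54.8% at 2 to 3 kb, 48.9% against 67.7% at 3 to 4 kb, 73.0% against 78.2% at 4 to 6 kb and 88.0% against 90.7% over 6 kb. This width joins WT and cKO calls and does not match WT H3K27ac. At 2 to 3 kb members held 1562 and 1434 bp in WT, against 1911 and 1714 bp away from promoters. Along the promoter H3.3-HA was highest about 900 bp upstream, at 23.1% and 33.2% of the members, and fell to 13.6% and 23.4% over the last 200 bp before the start site. The start site base itself lay in an H3.3-HA region in 12.4% and 22.9% of the members. The upstream excess is not a result here either, since the rule admitted midpoints farther upstream than downstream. From the start site to the step 400 bp downstream, H3.3-HA fell from 11.9% to 8.25% in replicate 1 and rose from 23.3% to 26.5% in replicate 2. WT H3K27ac rose over the same stretch, from 54.6% to 58.3% and from 53.7% to 56.0%. A dip at the start site like that of WT H3K27ac was thus not seen in both H3.3-HA replicates.

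Members with and without H3.3-HA were compared by their length in cKO. Of the 425 without it, 190 (44.7%) were longer and 57 (13.4%) shorter, with a mean difference of 335 bp. Of the 580 with it in both replicates, 192 (33.1%) were longer and 138 (23.8%) shorter, with a mean difference of 135 bp. Width differed between these groups, with medians of 2197 and 3609 bp. Within 2 to 3 kb, 39.4% of 170 members without H3.3-HA and 36.2% of 127 with it were longer, and 14.1% and 22.8% were shorter. Within 3 to 4 kb, 53.4% of 58 and 34.8% of 132 were longer, and 10.3% and 23.5% were shorter. Within 1 to 2 kb, 51.9% of 156 and 39.7% of 68 were longer. The order turned within 4 to 6 kb, where 23.8% of 21 members without H3.3-HA and 32.1% of 168 with it were longer. These shares are descriptions, since the lengths come from the lists that chose the members.

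H3K36me3 over the genes behind the members, a measure independent of the rule, showed no separation of the genotypes. Its regions covered a mean of 42.2% and 43.9% of the gene body in WT and 25.8% and 44.2% in cKO over 1373 genes, or 43.1% ± 1.23 and 35.0% ± 13.0 (SD, n = 2 each). The difference of -8.09 percentage points had a two-sided exact permutation p of 1.00, and 2 against 2 libraries cannot go below 0.333. It rested on cKO replicate 1, which stood apart over the whole genome, and without it the difference was 1.13 points. Of the 1269 genes with an H3K36me3 region in any library, 103 (8.12%) were higher in both cKO than in both WT libraries, against 8.12% of all 11139 such genes, and 505 (39.8%) were lower, against 38.4%. Both shares were close to the background.

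Genes whose promoter region was longer in cKO were compared with those whose region was shorter. Gene body H3K36me3 was 3.18 and 3.21 percentage points lower behind longer members in WT, where the means were 40.6% and 42.5% against 43.8% and 45.7%. In cKO the means were 26.6% and 44.1% against 26.5% and 44.1%, a difference of 0.0313 and -0.00809 points. The mean gap between longer and shorter members thus changed by 3.21 points from WT to cKO. An exact permutation test over the unpaired libraries gave p of 0.333, the smallest the design allows. At single genes, Mx1 had H3K36me3 over 77.2% and 63.0% of its body in WT and 88.2% and 90.6% in cKO, and Grn over 60.0% and 60.4% in WT and 79.4% and 83.6% in cKO. Fdps had 68.8% and 63.7% in WT and 0% and 36.4% in cKO. At these 3 genes H3K36me3 and promoter H3K27ac differed in the same direction, whereas Gpbp1l1, where H3K27ac was longer in cKO, had 72.7% and 73.6% in WT and 52.7% and 71.7% in cKO. These 4 genes were chosen after their values were seen.

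The sequence around the start site, which the rule did not use, was richer in CpG in members than over all promoters. In the 250 bases before and 50 bases from the start site, the median observed over expected CpG ratio was 0.783 in members and 0.567 over all 41136 protein-coding start sites, and the median GC content was 60.0% and 56.3%. A ratio of 0.6 or more, typical of CpG islands, was found in 1017 members (73.1%) and in 47.7% of all start sites. Promoter regions with H3K27ac in cKO alone (460, both replicates) had a higher median ratio of 0.820, with 83.7% at 0.6 or more. Those with H3K27ac in WT alone (214, both replicates) had 0.527 and 43.0%. High CpG content was thus not particular to the members. Members held GGGCGG in 59.7% (all start sites 45.7%), CCAAT in 35.5% (36.8%), CCGGAAG in 23.9% (11.3%), AAGATGGCG in 4.03% (1.95%), TGCGCATGC in 3.31% (1.88%), TCTCGCGAG in 2.01% (0.914%) and TATAAA in 5.39% (11.8%). The shares for GAGGAAGT (3.74% and 3.0%), TGACGTCA (3.45% and 2.30%), TGANTCA (5.75% and 6.54%), TTTCCCGC (1.73% and 1.42%) and the ISRE core (4.39% and 3.53%) were closer. A match is a string of letters, and these shares follow base composition in part.

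Within members, CpG content went with the genotype pattern at the start site. The 406 members bare in WT and covered in cKO had a median CpG ratio of 0.859, with 90.1% at 0.6 or more, and held GGGCGG in 71.4% and CCAAT in 42.4%. The 575 covered in all 4 libraries had a median ratio of 0.707, with 61.9% at 0.6 or more, and held GGGCGG in 52.3% and CCAAT in 27.7%. Members longer in cKO had a median ratio of 0.808 and shorter members 0.696, and 79.0% and 58.1% were at 0.6 or more. Members without H3.3-HA reached 0.6 in 84.5% and those with it in both replicates in 61.6%. Among the printed stretches the ratio did not separate gains from losses. It was 0, 0.640 and 0.231 in the gained 1600014C10Rik, Hist1h1b and Slfn8, and 0, 0.50 and 0.171 in the shortened Dnajc13, Htr2b and Celf1. Eef1g, bare in WT and covered in cKO, had 0.892 and Fdps, shorter in cKO, had 0.641. These shares describe sequence classes that differ in width and base composition, and which of these goes with the H3K27ac pattern was not tested.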

How the data were processed

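CUT&RUN reads of mouse BMDMs were aligned to mm10 with Bowtie2 after cutadapt trimming by the authors. The authors called regions per library with HOMER findPeaks in histone style. Per the file headers, a region required 4-fold enrichment over the control IgG library of its genotype at a Poisson p of 1e-04. The minimum distance between peaks was 1000 bp. The deposited lists give start and end in bp, and their deposited score column is constant and was not used. Tag totals came from the file headers.

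The 4 H3K27ac lists were merged and covered bp were counted per library with Python 3.11.15 (numpy 2.4.6, pandas 2.3.3, scipy 1.17.1, pysam 0.24.0). Start sites are those of protein-coding transcripts of GENCODE M21 basic, and coordinates are 1-based. H3K36me3 was compared by an exact permutation test over libraries. The code was tested on simulated lists.

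The members and gene lists were chosen with earlier results of these data known, and the gene lists were written from general knowledge. Named genes are the 12 members with the greatest gain and the 12 with the greatest loss of covered length without overlap of the genotypes, the 6 least varying members of at least 2 kb with H3.3-HA in both replicates, up to 4 of each gene list (the 2 greatest and the 2 most negative differences, not all of which are given), and the widest members. Isg20, Gbp2, Gbp3, Oas2, Parp12, Socs1, Irgm1, Irf9, Nmi and Ms4a1 were named after their values were seen. RNA lists of the study were not used here. Control IgG samples were not analysed here. Alternatives covered start site definition, placement, widths, list length, overlap minimum, gene body, the replicate block and leaving out each library.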

Additional observations from a re-analysis of the deposited data

How the results depend on the processing

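Results that rest on the H3K27ac lists are lengths at the calling threshold, and depth ranged from 16444864 to 29988098 tags. With starts of all transcripts there were 2131 regions, 34.8% longer and 22.1% shorter in cKO, and a start site difference of 22.8 points. With any overlap with the promoter window there were 4693, 32.0% longer, 24.4% shorter, 46.1% with H3.3-HA in both replicates, and a length ratio difference (chosen after seeing the data, as were all start site alternatives) of 0.405. With called regions of at least 1 kb there were 695, 29.5% longer, 24.3% shorter, 53.5% with H3.3-HA and a start site difference of 23.2 points. With lists of equal number these were 33% longer, 22.5% shorter, 47.3% and 27.5 points. Under 5 kb H3.3-HA overlap was 35.0%. It was 6.04% when H3.3-HA had to cover 50% of the region and 69.4% for either replicate. The causes were not tested.

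Leaving out each library in turn gave 1386 to 1677 regions, differences of 6.84 to 496 bp, 41.9% to 61.1% longer, 21.9% to 38.9% shorter (38.9% without cKO H3K27ac replicate 2), 37.7% to 63.7% with H3.3-HA, start site differences of 25 to 39.9 points, ratio differences of 0.290 to 0.390 and H3K36me3 differences of -17.3 to 1.13 points. The value of 1.13 reversed the sign and came without cKO H3K36me3 replicate 1. Fewer libraries loosen the condition of no overlap.

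The labels share replicate numbers, but nothing ties the numbers to a litter or day. With the replicate block the H3K27ac difference was 257 bp, from pairs of -122 and 636 bp, and the H3K36me3 difference -8.09 points, from pairs of -16.4 and 0.259, with an exact sign-flip p of 1.00. Deviations of same-numbered libraries correlated across regions at -0.0249 and across genes at 0.107, and with 2 pairs this does not show a pairing.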
